A study of Rattus norvegicus with 10 samples.

Results

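The genes described here are 31 genes of fatty acid oxidation and ketone body use, taken by symbol from a fixed list and found among the 17168 genes of the deposited tables. All 31 were in the table and all 31 passed the filter on low counts, which kept 12161 genes. They fall into 17 mitochondrial genes, 5 peroxisomal genes, 2 genes whose products work in both compartments, 5 long-chain acyl-CoA synthetases and 2 nuclear receptors. The list names genes by function and was drawn up with earlier results of these data known.

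Bulk RNA was sequenced from the left hippocampus of 10 male TgF-344AD rats, all killed at 11 months of age. TgF-344AD rats carry human transgenes with familial Alzheimer's disease mutations, in APP and presenilin, expressed from a prion promoter, and every rat in both groups carried them, so no wild-type animal was compared. The 5 untreated rats got no drug. The 5 RG2833 rats ate chow with 750 mg of RG2833, an inhibitor of class I histone deacetylases, per kg of chow from 5 months of age, for 6 months. A sentence of the series' design text names another drug, ibudilast, for the same schedule, whereas the title and the labels of the treated rats name RG2833. Each library is taken as a separate rat, and p-values measure the spread between these libraries.

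Fatty acids are first joined to coenzyme A by acyl-CoA synthetases. Long chains then enter mitochondria as carnitine esters and are shortened in cycles of dehydrogenation, hydration, oxidation and thiolytic cleavage, while very long and branched chains are shortened first in peroxisomes. In brain, oxidation of fatty acids is known mainly from astrocytes, and ketone bodies made elsewhere can serve as fuel after conversion back to acetyl-CoA. The receptors PPARα and PPARδ are ligand-activated transcription factors of many of these genes.

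All 12 neuron and 11 of 12 astrocyte markers were measured; markers of the hippocampus itself were not examined. Levels are in CPM, counts scaled to library size with TMM factors. Libraries held 15118198 to 18533523 estimated counts. Ribosomal RNA took from 4.07% to 11.4% of them, with the highest share in untreated replicate 3. In that rat the mean level of 10 microglial markers was also far above the other untreated rats, and its neuron marker level was the lowest of all 10. Untreated replicate 2 and RG2833 replicate 1 held the most choroid plexus RNA. Counts of members at an unadjusted p under 0.05 are given with and without single rats, as are fold changes that moved by over 1.5 times.

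In RG2833 hippocampi 27 of the 31 genes had a higher mean than in untreated hippocampi, but none passed the test. At an adjusted p under 0.05 in edgeR's quasi-likelihood test, 0 of 31 members and 0% of all genes tested were called, and DESeq2 called 7 genes, none of them a member. At an unadjusted p under 0.05 the tests had 688 genes (edgeR) and 749 genes (DESeq2). The smallest edgeR adjusted p over all genes was 0.841. In edgeR, 7 members at this level were higher in RG2833 (2.94% of all genes were) and 0 were lower (2.71% of all genes were). The 7 were Acsl6, Hadhb, Eci2, Crat, Oxct1, Etfa and Hadh. The ranges of the groups overlapped for all 31 members, as they did for all but 1.00% of all genes. The median log2 fold change was 0.12 over the members and -0.011 over all genes tested, of which 46.5% were higher in RG2833. These are small differences, from -0.20 for Acsl1 to 0.31 for Ppara on the log2 scale.

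**Figure D1:**
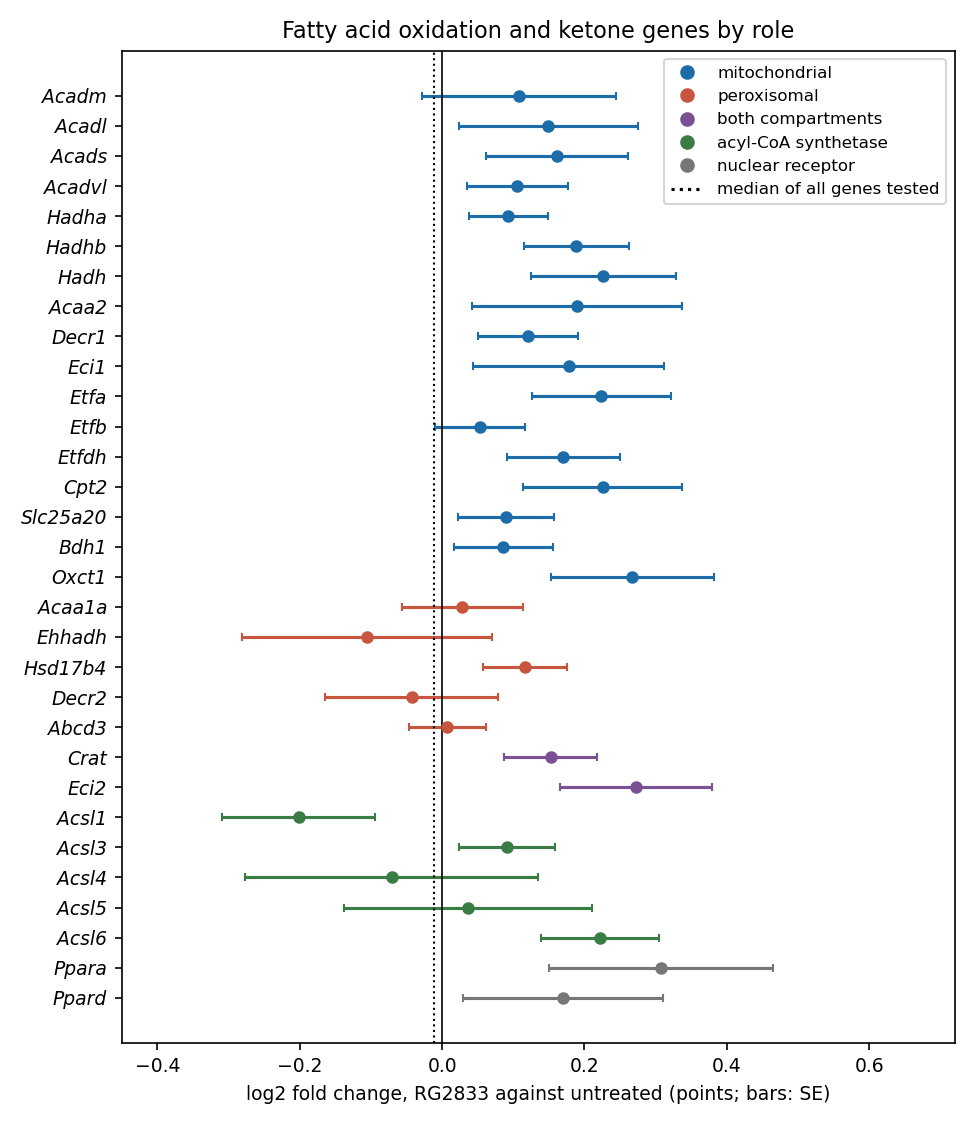
Log2 fold change of each gene between RG2833 and untreated hippocampi (points) with its standard error (bars), ordered and coloured by role, with 5 rats in each group. All 17 mitochondrial genes lie to the right of 0, while the peroxisomal genes and the synthetases lie on both sides of it; with the astrocyte level as a covariate, 5 mitochondrial genes were below 0.

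The count of members at an unadjusted p under 0.05 depended on which rat was left out. Leaving out untreated replicate 1 gave 4 (5.21% of all genes in that fit), untreated replicate 2 gave 2 (4.17% of all genes in that fit), untreated replicate 3 gave 16 (14.2% of all genes in that fit), untreated replicate 4 gave 2 (4.88% of all genes in that fit), untreated replicate 5 gave 1 (4.62% of all genes in that fit), RG2833 replicate 4 gave 0 (3.07% of all genes in that fit) and RG2833 replicate 5 gave 1 (3.46% of all genes in that fit), against 7 with all rats (5.66% of all genes). The median over members was 0.17 without untreated replicate 3, and the lowest median with a rat left out was 0.094, without untreated replicate 1. Leaving out untreated replicate 3 moved the log2 fold change by over 1.5 times or changed its sign for 11 members, Acadm (0.11 with it and 0.22 without it), Acadl (0.15 with it and 0.26 without it), Acaa2 (0.19 with it and 0.33 without it), Eci1 (0.18 with it and 0.29 without it), Bdh1 (0.086 with it and 0.13 without it), Acaa1a (0.028 with it and 0.10 without it), Abcd3 (0.0073 with it and -0.022 without it), Acsl4 (-0.071 with it and -0.21 without it), Acsl5 (0.037 with it and -0.087 without it), Ppara (0.31 with it and 0.20 without it) and Ppard (0.17 with it and 0.28 without it). Leaving out untreated replicate 1 instead put Acadm at 0.043, Acadl at 0.079, Acadvl at 0.070, Acaa2 at 0.12, Eci1 at 0.11 and Ppard at 0.092. Leaving out untreated replicate 5 instead put Acadm at 0.068. Leaving out RG2833 replicate 3 instead put Acadm at 0.17. Leaving out RG2833 replicate 4 instead put Acadm at 0.059. Leaving out RG2833 replicate 5 instead put Acadm at 0.050, Acadvl at 0.069, Acaa2 at 0.12, Eci1 at 0.11 and Ppard at 0.11. The values of Etfb, Slc25a20, Acaa1a, Ehhadh, Decr2, Abcd3, Acsl3, Acsl4 and Acsl5, small with all rats, also moved by over 1.5 times. Over all rats left out in turn, their log2 fold changes ran from 0.018 to 0.086, from 0.058 to 0.13, from -0.0045 to 0.10, from -0.21 to 0.029, from -0.10 to 0.034, from -0.022 to 0.025, from 0.063 to 0.14, from -0.21 to 0.037, from -0.087 to 0.12, in that order.

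The 10 genes of the mitochondrial cycle itself all had a higher mean in RG2833, with log2 fold changes from 0.093 to 0.23. The acyl-CoA dehydrogenases, which take the first step on chains of decreasing length, had higher means in RG2833, and none was at an unadjusted p under 0.05. Acadvl, for very long chains, was at 53.6 ± 4.08 CPM in untreated rats and 57.7 ± 4.06 CPM in rats given RG2833 (mean ± SD here and below, n = 5 each). Acadl, for long chains, was at 44.95 ± 8.11 CPM in untreated rats and 49.8 ± 5.98 CPM in rats given RG2833. Acadm, for medium chains, was at 40.4 ± 7.70 CPM in untreated rats and 43.6 ± 6.24 CPM in rats given RG2833. Acads, for short chains, was at 22.4 ± 2.01 CPM in untreated rats and 25.1 ± 3.26 CPM in rats given RG2833. Their log2 fold changes were 0.11, 0.15, 0.11 and 0.16, and the unadjusted p ran from 0.136 to 0.445. In the same order they were 0.049, -0.085, -0.12 and 0.038 with the astrocyte level as a covariate, where 6 of the 10 cycle genes were higher.

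Hadha and Hadhb encode the α and β subunits of the trifunctional protein, which carries out the last 3 steps of the cycle on long chains. Hadhb was at 107, 108, 127, 110.5 and 108 CPM in the untreated rats and 115, 127, 121, 134 and 142 CPM in the RG2833 rats, in order of replicates 1 to 5 here and below. Every RG2833 value lay above the untreated mean, and untreated replicate 3 overlapped with them (log2 fold change 0.19, SE 0.073, unadjusted p = 0.0266, adjusted p = 0.841). Hadha was at 148 ± 6.17 CPM in untreated rats and 158 ± 8.15 CPM in rats given RG2833, with a log2 fold change of 0.093 and an unadjusted p of 0.122. Hadha and Hadhb are neighbours on opposite strands in the RefSeq annotation of build GRCr8, head to head, and their promoter windows overlap by 200 bases, which is why the Hadha window is shown. It runs from 250 bases before to 50 after the start of the gene, from RefSeq (chr6:31907551-31907850, plus strand), with the 1 match to the GC box GGGCGG, on either strand, in capitals.

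Hadha: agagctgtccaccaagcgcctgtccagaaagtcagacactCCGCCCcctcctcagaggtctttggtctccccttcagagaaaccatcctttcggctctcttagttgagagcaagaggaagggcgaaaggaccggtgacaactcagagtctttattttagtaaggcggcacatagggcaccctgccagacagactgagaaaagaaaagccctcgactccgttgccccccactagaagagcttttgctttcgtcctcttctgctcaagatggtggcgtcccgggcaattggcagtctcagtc

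Promoter windows of this length were given for 27 of the 31 members, and not for Acadl, Acaa2, Decr1 and Ppard. The GC box, searched as GGGCGG on both strands, was in 23 of the 27, against 61.99% of 9094 windows of tested genes and 34.9% of all 27457 windows. The nuclear receptor core AGGTCA was in 5, those of Hadhb, Eci1, Acadvl, Eci2 and Hsd17b4, against 11.8% of windows of tested genes. The repeat AGGTCANAGGTCA, which contains that core and is the consensus for PPAR binding, was in none of the 27 and in 0.0440% of windows of tested genes. These are matches of letters in short windows only.

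Hadh, which oxidises short and medium hydroxyacyl chains, was at 25.2, 30.1, 35.8, 31.6 and 29.2 CPM in the untreated rats and 32.8, 34.1, 31.9, 37.8 and 41.2 CPM in the RG2833 rats. All RG2833 values were above the untreated mean and 2 were above the highest untreated value (log2 fold change 0.23, SE 0.10, unadjusted p = 0.0476, adjusted p = 0.841). Acaa2, the mitochondrial thiolase, was at 29.7, 38.01, 49.96, 32.6 and 32.7 CPM in the untreated rats and 41.1, 37.2, 35.1, 45.5 and 49.8 CPM in the RG2833 rats. Untreated replicate 3 had the highest value of all, and the groups overlapped over most of their range (log2 fold change 0.19, SE 0.15, unadjusted p = 0.225, adjusted p = 0.904). The auxiliary enzymes for unsaturated chains also had small differences. Decr1, a dienoyl-CoA reductase, was at 16.6 ± 0.910 CPM in untreated rats and 18.1 ± 1.22 CPM in rats given RG2833, and Eci1, an enoyl-CoA isomerase, at 21.6 ± 4.13 CPM in untreated rats and 24.4 ± 3.15 CPM in rats given RG2833, with log2 fold changes of 0.12 and 0.18.

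Electrons from the dehydrogenases pass to the electron transfer flavoprotein, made of Etfa and Etfb, and then to its ubiquinone oxidoreductase, Etfdh. Etfa was at 37.6, 48.6, 51.5, 49.04 and 41.9 CPM in the untreated rats and 51.6, 47.9, 51.3, 54.9 and 61.3 CPM in the RG2833 rats. All RG2833 values exceeded the untreated mean, and untreated replicate 1 was the lowest of all (log2 fold change 0.22, SE 0.10, unadjusted p = 0.0436, adjusted p = 0.841). Etfdh was at 30.5, 39.3, 38.8, 35.02 and 36.8 CPM in the untreated rats and 40.2, 37.99, 38.1, 42.6 and 44.1 CPM in the RG2833 rats. It showed the same order, with untreated replicate 1 lowest and RG2833 replicate 5 highest (log2 fold change 0.17, SE 0.079, unadjusted p = 0.0554, adjusted p = 0.841). Etfb, the partner subunit of Etfa, was at 56.1 ± 2.49 CPM in untreated rats and 58.2 ± 4.30 CPM in rats given RG2833, with a log2 fold change of 0.053 (SE 0.063).

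Carnitine esters cross the inner membrane through Slc25a20 and are turned back into acyl-CoA by Cpt2. Cpt2 was at 13.8, 16.2, 19.5, 14.7 and 14.1 CPM in the untreated rats and 19.6, 16.8, 15.7, 19.9 and 19.5 CPM in the RG2833 rats. Untreated replicate 3 lay among the RG2833 values, and the other untreated rats were below 4 of the 5 RG2833 rats (log2 fold change 0.23, SE 0.11, unadjusted p = 0.0694, adjusted p = 0.841). Slc25a20 was at 32.03, 35.3, 39.5, 33.3 and 36.1 CPM in the untreated rats and 38.5, 35.04, 36.3, 37.4 and 40.3 CPM in the RG2833 rats. The groups overlapped, and the difference was smaller than the untreated SD (log2 fold change 0.090, SE 0.068, unadjusted p = 0.214, adjusted p = 0.901). Outside the fixed members, Cpt1a, which commits long chains to import and is the step that malonyl-CoA inhibits, was at 56.3 ± 13.00 CPM in untreated rats and 70.5 ± 10.1 CPM in rats given RG2833 (log2 fold change 0.33, SE 0.15, unadjusted p = 0.0526, adjusted p = 0.841). Its brain paralogue Cpt1c was at 87.5 ± 10.9 CPM in untreated rats and 83.8 ± 11.8 CPM in rats given RG2833, with a log2 fold change of -0.063. The log2 fold changes of Cpt1a and Cpt1c were 0.066 (SE 0.11) and 0.14 (SE 0.094) with the astrocyte level as a covariate.

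Bdh1 oxidises β-hydroxybutyrate to acetoacetate, and Oxct1 activates acetoacetate for use as fuel. Oxct1 was at 255, 225, 319, 277 and 253 CPM in the untreated rats and 279, 291, 297, 350.3 and 381 CPM in the RG2833 rats. RG2833 replicates 4 and 5 were the highest, untreated replicate 3 was next, and untreated replicate 2 was the lowest (log2 fold change 0.27, SE 0.11, unadjusted p = 0.0406, adjusted p = 0.841). Bdh1 was at 25.97, 25.00, 29.1, 24.1 and 25.7 CPM in the untreated rats and 25.2, 27.3, 26.9, 28.8 and 29.7 CPM in the RG2833 rats. Its groups overlapped with untreated replicate 3 among the highest (log2 fold change 0.086, SE 0.069, unadjusted p = 0.240, adjusted p = 0.904).

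The peroxisomal genes had small differences of either sign, and those of Acaa1a and Abcd3 turned negative when library sizes were taken without ribosomal RNA. Hsd17b4, the peroxisomal multifunctional enzyme for branched and very long chains, was at 71.5, 75.6, 82.4, 79.8 and 76.8 CPM in the untreated rats and 79.8, 81.8, 81.3, 84.2 and 91.5 CPM in the RG2833 rats. Every RG2833 rat was above the untreated mean and 2 were above all untreated rats (log2 fold change 0.12, SE 0.059, unadjusted p = 0.0730, adjusted p = 0.841). Ehhadh, a second multifunctional enzyme, was at 3.87, 6.51, 5.19, 4.35 and 4.13 CPM in the untreated rats and 4.52, 4.03, 3.65, 4.45 and 5.74 CPM in the RG2833 rats. Untreated replicate 2 was highest, and the group means differed by less than either SD (log2 fold change -0.11, SE 0.18, unadjusted p = 0.561, adjusted p = 0.959); it had only 57 to 127 counts in a library. The thiolase Acaa1a was at 30.3 ± 3.51 CPM in untreated rats and 30.9 ± 2.15 CPM in rats given RG2833, the reductase Decr2 at 7.22 ± 0.986 CPM in untreated rats and 7.01 ± 0.797 CPM in rats given RG2833 and Abcd3, a transporter of the peroxisomal membrane, at 98.4 ± 4.88 CPM in untreated rats and 98.9 ± 4.22 CPM in rats given RG2833, with log2 fold changes of 0.028, -0.043 and 0.0073. Counts of Ehhadh, Eci2 and Ppard were not whole numbers in any library before rounding, so RSEM shared reads between these genes and others.

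Crat, the carnitine acetyltransferase, and Eci2, an enoyl-CoA isomerase, act in both compartments. Crat was at 146, 129.8, 146, 131 and 140.1 CPM in the untreated rats and 140.2, 152, 149, 168 and 159.9 CPM in the RG2833 rats. 4 of the 5 RG2833 rats were above every untreated rat (log2 fold change 0.15, SE 0.065, unadjusted p = 0.0397, adjusted p = 0.841). Eci2 was at 35.1, 31.3, 43.04, 33.98 and 31.9 CPM in the untreated rats and 38.01, 39.01, 39.5, 50.2 and 45.1 CPM in the RG2833 rats. Untreated replicate 3 lay among the RG2833 values and 2 RG2833 rats were above it (log2 fold change 0.27, SE 0.11, unadjusted p = 0.0274, adjusted p = 0.841).

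**Figure D2:**
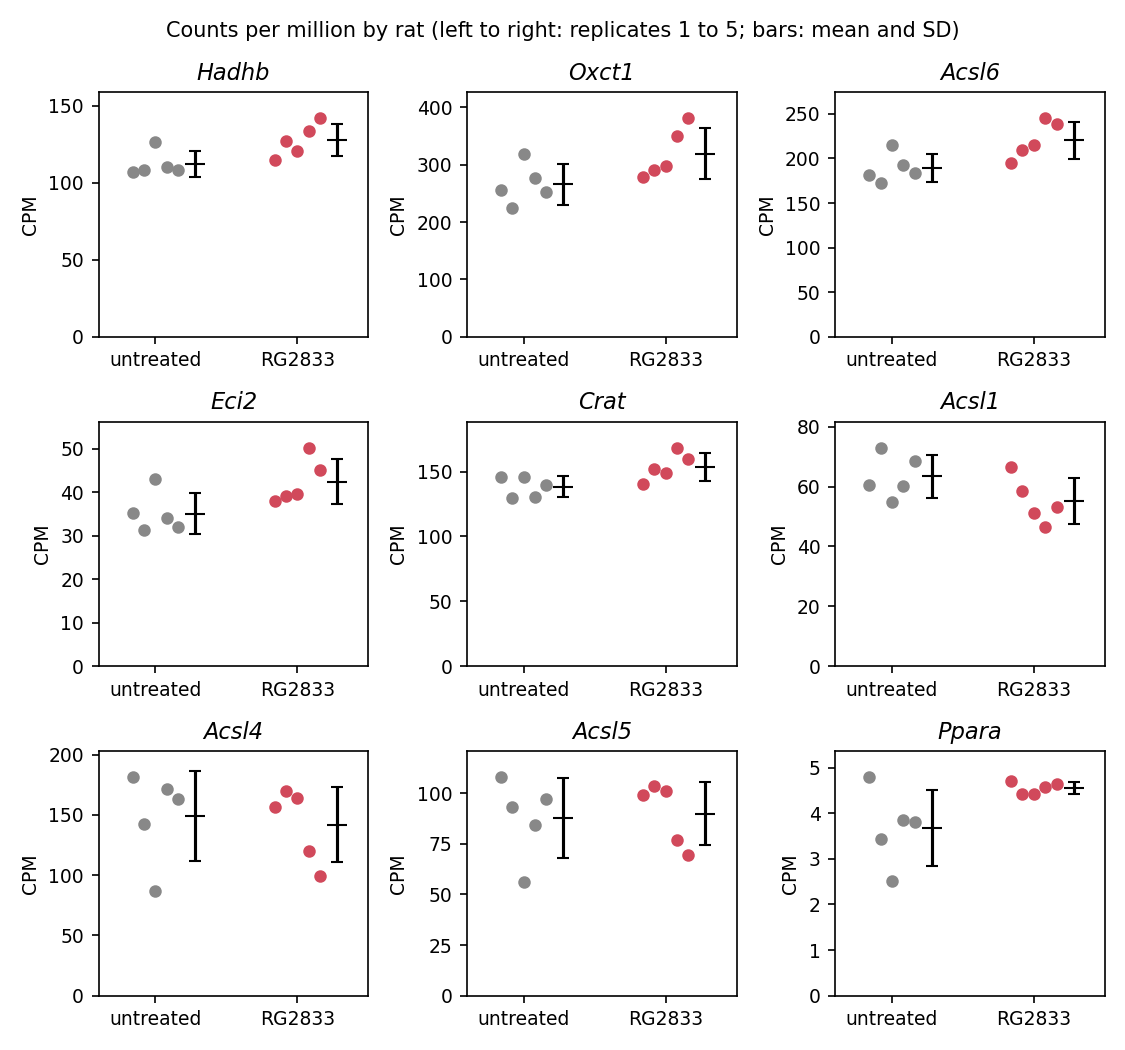
CPM of 9 of the genes in each of the 10 rats, untreated in grey and RG2833 in red, with the mean and SD beside each group. Hadhb, Oxct1, Acsl6, Eci2 and Crat had higher means in RG2833 with overlapping groups, while Acsl1 and Acsl4 had lower means, Acsl5 differed by little beside its SD, and Ppara varied less among the RG2833 rats.

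The 17 mitochondrial genes and the 5 peroxisomal genes differed in their median log2 fold change. Astrocyte and endothelial marker levels, described further on, both moved with the mitochondrial genes. The endothelial level (log2 CPM, centred on the 10 libraries) in untreated replicates 1 to 5 was -0.47, 0.020, 0.50, -0.26 and -0.35. In RG2833 replicates 1 to 5 it was -0.13, -0.061, -0.17, 0.33 and 0.60. Untreated replicate 2 had the lowest astrocyte level, -0.39, and a mitochondrial mean of 0.029. Which of these levels the genes followed was not tested. The median was 0.16 for the mitochondrial genes, 17 of 17 of them higher in RG2833, and 0.0073 for the peroxisomal genes, 3 of 5 higher. With the astrocyte marker level as a covariate the medians were 0.043 and 0.039. Over the mitochondrial genes, the mean log2 CPM in untreated replicates 1 to 5, relative to the untreated mean, was -0.16, 0.029, 0.21, -0.016 and -0.058, and in RG2833 replicates 1 to 5 it was 0.10, 0.081, 0.047, 0.25 and 0.31. Over the peroxisomal genes the untreated values were -0.084, 0.12, 0.062, -0.054 and -0.049, and the RG2833 values were 0.037, -0.022, -0.10, 0.047 and 0.066. The mitochondrial mean rests on a spread in which untreated replicate 1 was the lowest library for 12 of the 17 genes and RG2833 replicate 5 the highest for 9. The mitochondrial minus peroxisomal difference had a mean of 0.15 in RG2833 (SD 0.071) against 0 by construction in untreated rats (SD 0.10), with ranges of 0.066 to 0.24 and -0.10 to 0.14, which overlapped. No test was made of the sets, because the genes were listed with earlier results known. Leaving out each rat in turn gave a mitochondrial median of 0.11 to 0.22 and a peroxisomal median of -0.022, without untreated replicate 3, to 0.029, so the sign of the peroxisomal median rested on single rats. For the difference it gave 0.13 to 0.19.

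**Figure D3:**
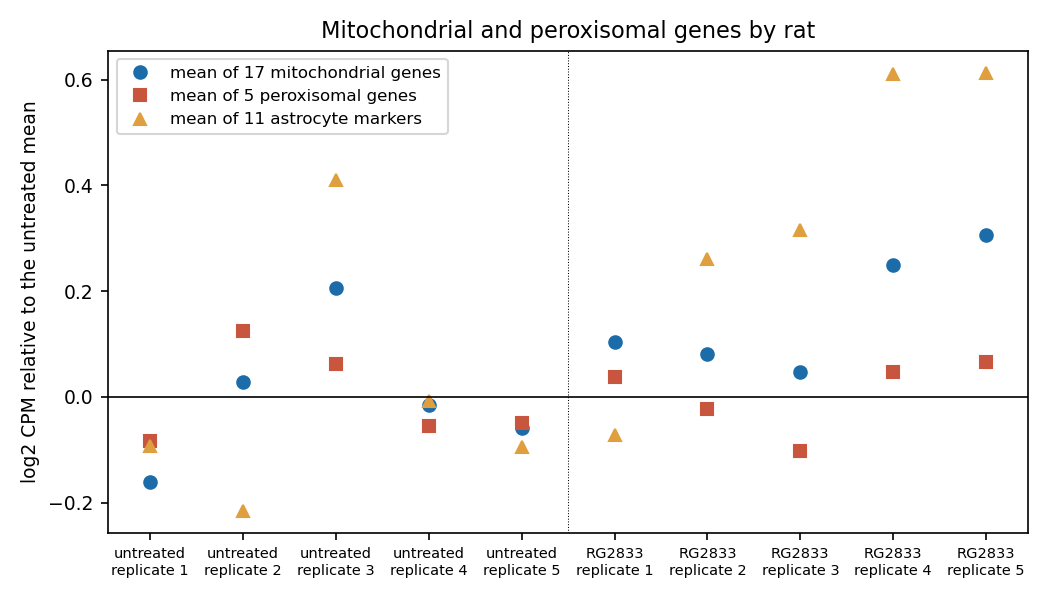
Mean log2 CPM of the mitochondrial genes (circles), the peroxisomal genes (squares) and the astrocyte markers (triangles) in each rat, relative to the untreated mean. The mitochondrial mean ran from -0.16 in untreated replicate 1 to 0.31 in RG2833 replicate 5, and untreated replicate 3 was high for both the mitochondrial genes and the astrocyte markers.

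Long-chain acyl-CoA synthetases differ in tissue and substrate. Acsl6, a form of brain, was at 182, 173, 215, 193 and 183 CPM in the untreated rats and 195, 209, 215, 245 and 238 CPM in the RG2833 rats. Every RG2833 value was above the untreated mean, and 3 were above untreated replicate 3, the highest untreated rat (log2 fold change 0.22, SE 0.082, unadjusted p = 0.0215, adjusted p = 0.841). Acsl1 was at 60.6, 72.99, 54.8, 60.3 and 68.4 CPM in the untreated rats and 66.5, 58.6, 51.2, 46.4 and 53.1 CPM in the RG2833 rats. It was the member with the most negative difference, with 1 RG2833 rat above the untreated mean (log2 fold change -0.20, SE 0.11, unadjusted p = 0.0894, adjusted p = 0.841). With the astrocyte level as a covariate its log2 fold change was 0.0015 (SE 0.077). Acsl4, which prefers arachidonic acid, was at 181, 143, 87.1, 172 and 163 CPM in the untreated rats and 157, 170.1, 164, 119.7 and 99.2 CPM in the RG2833 rats. Untreated replicate 3 and RG2833 replicates 4 and 5 were low, and the groups overlapped fully (log2 fold change -0.071, SE 0.21, unadjusted p = 0.738, adjusted p = 0.982). Acsl3, linked to lipid droplets, was at 290.3 ± 22.3 CPM in untreated rats and 309 ± 14.3 CPM in rats given RG2833 (log2 fold change 0.091). Acsl5, an activator of long chains in mitochondria and reticulum, was at 87.7 ± 19.7 CPM in untreated rats and 89.9 ± 15.7 CPM in rats given RG2833 (log2 fold change 0.037). The log2 fold changes of Acsl6, Acsl4, Acsl3 and Acsl5 were 0.056, 0.34, 0.083 and 0.41 with the astrocyte level as a covariate. Acsl5 was the only member with the letters TATAAA, on either strand, in its window (6.77% of windows of tested genes hold them), and Acsl6 held a GC box. The Acsl5 window (chr1:264294601-264294900, plus strand) has TATAAA in capitals and the Acsl6 window (chr10:38951911-38952210, plus strand) has the GC box in capitals. Both are shown because these synthetases varied in opposite directions with the astrocyte marker level. Acsl4, which varied as Acsl5 did, also held a GC box, as did Acsl3. Any link of the letters to these directions was not tested.

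Acsl5: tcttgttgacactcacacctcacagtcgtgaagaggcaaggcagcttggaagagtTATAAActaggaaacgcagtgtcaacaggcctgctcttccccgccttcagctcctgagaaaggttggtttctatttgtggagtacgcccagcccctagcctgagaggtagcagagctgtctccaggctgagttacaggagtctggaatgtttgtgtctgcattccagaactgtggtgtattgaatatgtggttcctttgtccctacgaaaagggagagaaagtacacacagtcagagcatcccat

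Acsl6: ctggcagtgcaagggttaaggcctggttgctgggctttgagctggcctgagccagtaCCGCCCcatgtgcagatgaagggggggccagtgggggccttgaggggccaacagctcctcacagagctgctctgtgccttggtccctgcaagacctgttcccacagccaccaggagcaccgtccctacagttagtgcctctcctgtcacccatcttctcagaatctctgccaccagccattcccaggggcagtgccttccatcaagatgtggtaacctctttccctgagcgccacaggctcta

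Both receptors had a higher mean in RG2833. Their log2 fold changes with the astrocyte level as a covariate were 0.46 for Ppara and -0.086 for Ppard. Ppara was at 4.79, 3.43, 2.51, 3.86 and 3.80 CPM in the untreated rats and 4.71, 4.43, 4.41, 4.57 and 4.63 CPM in the RG2833 rats. The RG2833 values spanned only 4.41 to 4.71 CPM and untreated replicate 1 was above all of them (log2 fold change 0.31, SE 0.16, unadjusted p = 0.0777, adjusted p = 0.841). The coefficient of variation was 22.4% in untreated and 2.84% in RG2833 rats, a difference that was not tested, and Ppara had 42 to 83 counts in a library. Ppard was at 32.5, 41.8, 54.3, 42.4 and 38.2 CPM in the untreated rats and 40.6, 44.4, 40.9, 53.9 and 55.5 CPM in the RG2833 rats. Untreated replicate 3 and RG2833 replicates 4 and 5 were high, and the others lay between 32.5 and 44.4 CPM (log2 fold change 0.17, SE 0.14, unadjusted p = 0.253, adjusted p = 0.908).

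Genes around these steps were counted in wider lists, written with earlier results known. Of the genes listed as further mitochondrial oxidation, 15 of 21 had a higher mean in RG2833 (median 0.074), and of those listed as peroxisomal 12 of 20 (median 0.038). The lists are broad and not limited to enzymes that oxidise fatty acids in the named compartment. At an unadjusted p under 0.05 the mitochondrial list held Acad11 (0.21), Ivd (0.15), Echs1 (0.19) and Acaca (0.19). The peroxisomal list held Crot (0.32), Abcd2 (0.37) and Phyh (0.18). All were higher on the log2 scale, as 2.94% of all genes were at this level, and none passed after adjustment. With the astrocyte level as a covariate they were at 0.16, 0.093, 0.10, 0.11, 0.081, 0.14 and 0.077, in that order. Acaca, acetyl-CoA carboxylase, is in the mitochondrial list but makes malonyl-CoA, which inhibits import, and does not itself oxidise fatty acids. In the list of receptor partners, 8 of 14 were higher (median 0.041), among them the coactivator Ppargc1a at 15.4 ± 1.09 CPM in untreated rats and 18.5 ± 1.998 CPM in rats given RG2833 (log2 fold change 0.27, SE 0.089, unadjusted p = 0.0129, adjusted p = 0.841). Peroxisome biogenesis had 11 of 17 higher, ketone synthesis and transport 5 of 12, and fatty acid uptake and droplets 11 of 16. These 3 counts were 11 of 17, 10 of 12 and 5 of 16 with the astrocyte level as a covariate.

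In bulk tissue, fewer cells of a type and less RNA per cell cannot be told apart, and the markers of astrocytes moved with these genes. Of 11 astrocyte markers tested, 11 had a higher mean in RG2833. Their mean level, in log2 CPM centred on the 10 libraries, ran from -0.39 to 0.24 in untreated and from -0.24 to 0.44 in RG2833 rats, a difference of 0.35 (2-sided exact permutation p = 0.0952). Untreated replicate 3 was the only untreated rat above 0, and RG2833 replicate 1 the only RG2833 rat below it. The neuron level ran from -0.25 to 0.26 and from -0.17 to 0.16. Means were higher in RG2833 for 7 of 8 endothelial markers (median log2 fold change 0.26) and 7 of 10 microglial markers (0.058). They were lower for 10 of 12 neuron markers (-0.074) and 8 of 10 oligodendrocyte markers (-0.14). None of these markers passed adjustment.

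Within groups, 11 members rose and 3 fell with the astrocyte level, by the slope of log2 expression on it in edgeR with group as a covariate. Rose and fell mean an adjusted p under 0.05 for the slope. Among all genes 15.8% rose and 15.7% fell, against 35.5% and 9.68% of the members. By sign alone, 23 of 31 members and 5623 of 12161 genes had a slope above 0. The members that rose were Acadm, Acadl, Hadhb, Hadh, Eci1, Bdh1, Oxct1, Acaa1a, Eci2, Acsl6 and Ppard, which include 7 of the 17 mitochondrial genes and 1 of the 5 peroxisomal genes. Ppard had the steepest positive slope, 0.74 (SE 0.18, edgeR adjusted p = 0.0128). Oxct1 had a slope of 0.67 (SE 0.11, edgeR adjusted p = 0.00299) and Acsl6 of 0.48 (SE 0.078, edgeR adjusted p = 0.00277). Hadhb rose, with a slope of 0.39 (SE 0.086, edgeR adjusted p = 0.00855), and its neighbour Hadha had 0.15 (SE 0.10, edgeR adjusted p = 0.261); the difference between them was not tested. Acsl4, Acsl5 and Acsl1 fell, with slopes of -1.15 (SE 0.32, edgeR adjusted p = 0.0239), -1.03 (SE 0.23, edgeR adjusted p = 0.00961) and -0.60 (SE 0.13, edgeR adjusted p = 0.00890). Acsl6 and these 3 synthetases thus varied in opposite directions. Other cell types moved with the list: 10 of 10 microglial and 6 of 8 endothelial markers also rose with it, while 8 of 12 choroid plexus and 5 of 12 neuron markers fell and 1 neuron marker rose. Their part in the result was not tested.

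**Figure D4:**
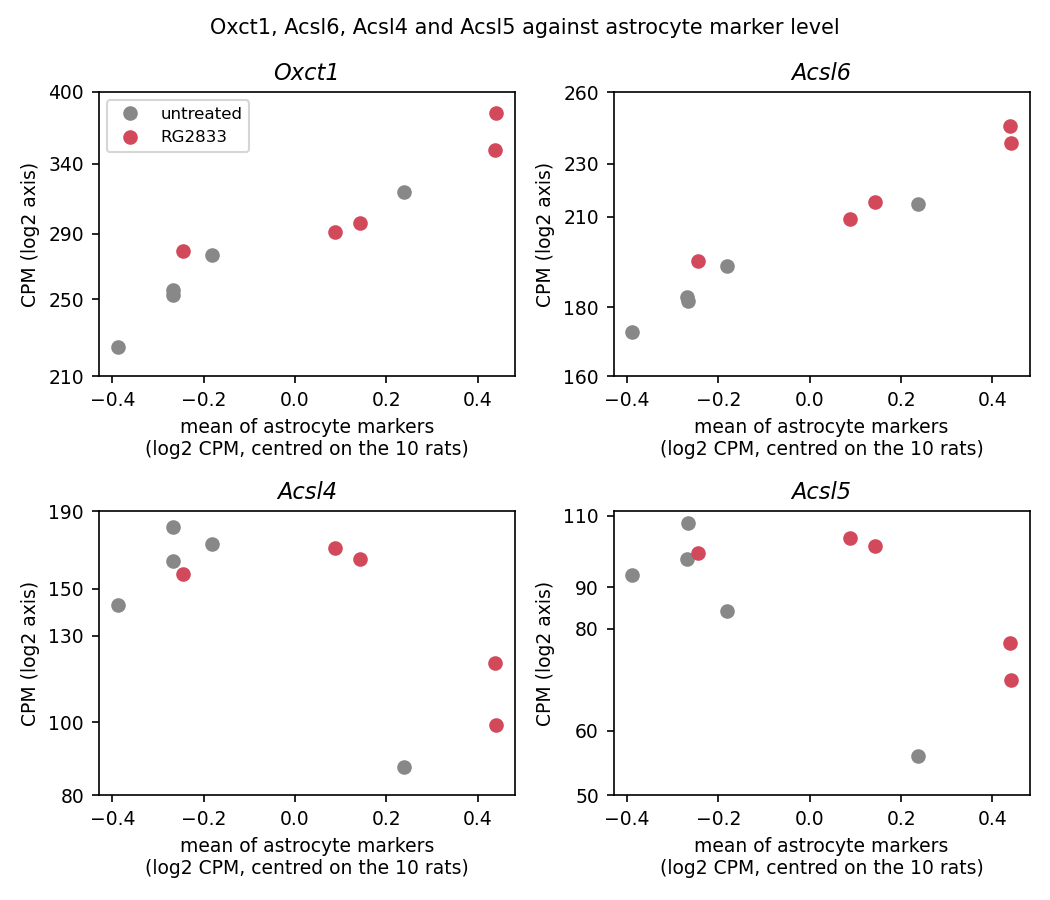
CPM of Oxct1, Acsl6, Acsl4 and Acsl5 on a log2 axis against the mean level of the astrocyte markers in each rat, untreated in grey and RG2833 in red. Oxct1 and Acsl6 rise along the axis, while Acsl4 and Acsl5 are lowest in untreated replicate 3 and RG2833 replicates 4 and 5.

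With the neuron level, 2 members rose and 12 fell, against 8.07% and 8.55% of all genes. Acsl4 rose most steeply, with a slope of 2.07 (SE 0.35, edgeR adjusted p = 0.0112), followed by Acsl5 at 1.63 (SE 0.34, edgeR adjusted p = 0.0175). Acaa2 had the steepest negative slope, -1.48 (SE 0.18, edgeR adjusted p = 0.00727). The others that fell were Acadm, Acadl, Acads, Hadh, Eci1, Etfa, Etfdh, Cpt2, Acaa1a, Ehhadh and Ppard. The signs of the astrocyte and neuron slopes were opposite for 29 of the 31 members. Both slopes come from the same 10 rats, in which a high level of one list went with a low level of the other in untreated replicate 3 and RG2833 replicates 4 and 5. Markers of other cells also fell with the neuron level, 8 of 8 for endothelium (median slope -2.12) and 7 of 10 for microglia (-1.42), against 1 of 11 astrocyte markers (-1.05). Their part in the members' slopes was not tested.

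**Figure D5:**
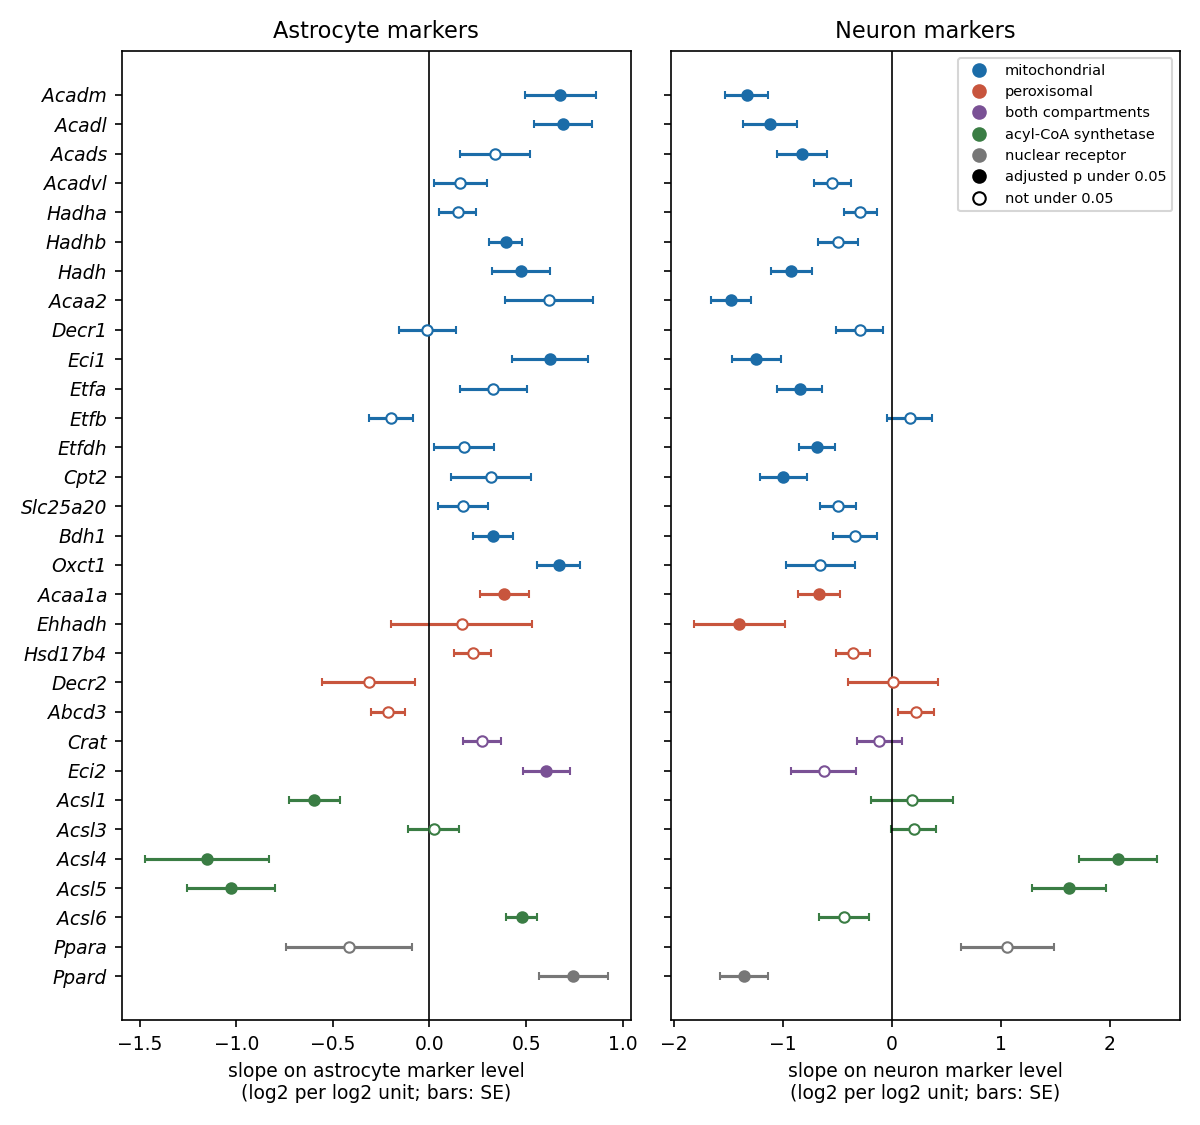
Slope of each gene on the astrocyte marker level (left) and on the neuron marker level (right), in log2 units of expression per log2 unit of markers, with standard errors. Filled points passed an adjusted p of 0.05; most mitochondrial genes lie above 0 on the left and below 0 on the right, and Acsl4 and Acsl5 lie on the other sides.

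The slopes moved with the ribosomal RNA share and with single rats. With the ribosomal RNA share as a further covariate, 0 genes passed on the astrocyte level, with 2052 genes and 7 members at an unadjusted p under 0.05 (16.9% of all genes), and all 14 passing members kept their sign. Without untreated replicate 3, 2 members rose and 1 fell with the astrocyte level, with 9 members at an unadjusted p under 0.05 (27.1% of all genes). Without the same rat, 0 rose and 0 fell with the neuron level, with 14 members at an unadjusted p under 0.05 (18.9% of all genes). In the same fits 531 genes rose and 214 fell with the astrocyte level, and 9 rose and 15 fell with the neuron level. The astrocyte slope of Acsl4 was then -0.74 (adjusted p = 0.227) and that of Acsl5 -0.74 (adjusted p = 0.111) in edgeR, while the astrocyte slope of Oxct1 was 0.67 (adjusted p = 0.0369) and the astrocyte slope of Acsl6 was 0.48 (adjusted p = 0.0342).

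With the astrocyte level as a covariate in the comparison of treatments, the median log2 fold change over members was 0.052, 23 of 31 were higher, and 0 members and 0% of all genes passed adjustment. At an unadjusted p under 0.05, the members were Acsl5 (0.41) and Ppara (0.46), against 14.8% of all genes. For the 17 mitochondrial genes the median was 0.043, with 12 higher, and for the 5 peroxisomal genes it was 0.039. The part that cell makeup has in the difference between groups was not tested.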

How the data were processed

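RNA was measured by stranded mRNA sequencing of 10 hippocampi. The authors deposited RSEM expected counts and a table of TMM-normalised CPM, a signal scaled by edgeR, per the submitters' processing notes, which name bcl2fastq 2.17, Bowtie2 2.1.0, RSEM 1.2.15, edgeR and build rn6. Deposited CPM gave back whole reads for 100% of values (tolerance 0.01), equal to the rounded expected counts. Of the expected counts, 11.6% were not whole and all were rounded first, which makes shared genes uncertain.

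Counts were fitted with edgeR 4.0.16 (quasi-likelihood, TMM, robust; genes kept by filterByExpr with a minimum count of 10 and a total of 15), with Benjamini-Hochberg adjustment over all genes tested; limma 3.58.1 and DESeq2 1.42.0 were alternatives. Levels are CPM on TMM-scaled libraries, and set means use log2 CPM with a prior count of 2. Scripts were tested on simulated data. The members and lists were chosen with earlier results of these data known, as were the tests. Values in every library are given for the 2 members of each role with the smallest p, for members under 0.05, and for the steepest passing slopes. Covariates of ribosomal RNA and neuron level and the choroid exclusion for slopes were chosen after seeing the data. Promoters are from RefSeq GRCr8; no coordinates of the deposited build are given. A few genes of the wider lists that the naming rule covers are not reported here. Levels are not compared between genes, as no lengths were used.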

Additional observations from a re-analysis of the deposited data

Results flagged for a closer look

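In 3 of the 80 sets of 5 values tested, a single rat stood far from the rest, where chance gives about 1 in 20. Hadhb in untreated rats had its highest value, 127 CPM, in untreated replicate 3, against 110.5 CPM in the next rat, a gap of 0.822 of the range. The microglial markers in untreated rats were highest in the same rat, at 0.62 against -0.11 (log2, centred), a gap of 0.806 of the range. The choroid plexus markers in RG2833 rats were highest in RG2833 replicate 1, at 4.56 against -0.65, a gap of 0.746 of the range.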

How the results depend on the processing

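The number of members at an unadjusted p under 0.05 (7 in the main analysis) varied with the processing. It was 1 with library sizes without ribosomal RNA (6.69% of all genes), 4 without the choroid-rich libraries (4.9%), 13 under limma-voom with sample weights (10.4%), and 2 (14.8%) with the astrocyte level as a covariate, where the median log2 fold change of members was 0.052. DESeq2 called 7 genes. Leaving out each rat in turn gave 0 to 16 members. The whole reads recovered from the deposited CPM gave the main result (0 genes called). On the neuron level, 681 genes fell with median-of-ratios size factors, and 2304 rose and 2450 fell without the choroid-rich libraries. Without the group term 1 member fell with the astrocyte level. That fit had 22 members and 39.6% of all genes at an unadjusted p under 0.05. With ribosomal RNA share added, 0 genes passed on the astrocyte level (0 members), and on the neuron level 200 genes rose, 361 fell and 5 members fell. With the neuron level added to the astrocyte slope, 1073 genes and 6 members rose. Leaving out rats gave 531 to 2029 genes that rose and 214 to 2111 that fell with the astrocyte level (2 to 12 and 1 to 3 members), and 9 to 2104 (lowest without untreated replicate 3, highest without untreated replicate 2) and 15 to 2229 with the neuron level (0 to 2 and 0 to 18 members). The cause of these changes was not tested.

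Fold changes changed sign for Acaa1a at -0.011, Abcd3 at -0.030 (library size without ribosomal RNA), Ehhadh at 0.018, Abcd3 at -0.020 (no choroid-rich libraries), Decr2 at 0.0078, Abcd3 at -0.0095 (voom) and, with the astrocyte covariate, Acadm at -0.12, Acadl at -0.085, Acaa2 at -0.015, Eci1 at -0.035, Bdh1 at -0.028, Acaa1a at -0.10, Decr2 at 0.067, Acsl1 at 0.0015, Acsl4 at 0.34, Ppard at -0.086. Leaving out a rat, the fold change ranged for Acaa1a from -0.00449 to 0.101, Ehhadh -0.207 to 0.0291, Decr2 -0.0960 to 0.0344, Abcd3 -0.0224 to 0.0248, Acsl4 -0.212 to 0.0366 and Acsl5 -0.0865 to 0.122.

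With the replicate number as a block, 2 members (3.3% of all genes) were at an unadjusted p under 0.05 in the comparison of treatments and 0 genes rose or fell with either marker level (5 members at an unadjusted p under 0.05 for astrocytes, with 20.6% of all genes, and 14 for neurons, with 23.8%). No label says that the numbers pair the rats, and the rats were taken as unpaired. Deviations of same-numbered rats correlated by -0.49 to -0.034, and none correlated best with its own number. With so few numbers this cannot exclude a factor that same-numbered rats shared. With 5 rats in a group, single genes of low count such as Ppara and Ehhadh have little precision.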

Other observations

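Around the fixed genes, a few genes of lipid handling had an unadjusted p under 0.05, without passing adjustment over all genes. They were 4 of 21 genes of the wider mitochondrial list and 3 of 20 of the wider peroxisomal list. The others were 2 of 17 of peroxisome biogenesis, 1 of 12 of ketone synthesis and transport, 1 of 16 of uptake and droplets and 1 of 14 receptor partners. Among all genes tested 2.94% were higher and 2.71% lower at this level. Acaca, acetyl-CoA carboxylase, whose product malonyl-CoA feeds lipid synthesis and inhibits Cpt1, was at 95.96, 88.8, 97.7, 96.00 and 93.97 CPM in the untreated rats and 99.1, 106, 109, 109 and 115 CPM in the RG2833 rats. The groups did not overlap, as for 1.00% of all genes (log2 fold change 0.19, SE 0.054, unadjusted p = 0.00558, adjusted p = 0.841). Aacs, which activates acetoacetate in the cytosol, was at 43.3 ± 3.76 CPM in untreated rats and 36.9 ± 1.64 CPM in rats given RG2833 (log2 fold change -0.23, SE 0.069, unadjusted p = 0.00711, adjusted p = 0.841). Slc27a3, a fatty acid transport protein, was at 13.6 ± 1.60 CPM in untreated rats and 10.2 ± 1.18 CPM in rats given RG2833 (log2 fold change -0.41, SE 0.11, unadjusted p = 0.00344, adjusted p = 0.841). Pex5, the import receptor of peroxisomes, was at 42.3 ± 2.11 CPM in untreated rats and 37.5 ± 1.497 CPM in rats given RG2833 (log2 fold change -0.17, SE 0.055, unadjusted p = 0.00920, adjusted p = 0.841).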
